A study of Mus musculus with 12 samples.

Results

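The 10 transcripts of the activator protein 1 (AP-1) and early response group were followed in C22 cells: Fos, Fosb, Fosl1 and Fosl2 of the Fos family, Jun, Junb and Jund of the Jun family, and Egr1, Atf3 and Ier3. They were taken by gene symbol. All 10 were listed among the 23282 gene symbols of the count tables and all 10 passed the filter on low counts, as 10 of 12425 genes tested. C22 is a club (Clara) cell line, cloned from a mouse that carries the H-2Kb-tsA58 transgene. The large T antigen of this transgene is heat-sensitive and is driven by an interferon-responsive promoter, so that the cells divide at a lower temperature with interferon-γ and differentiate at a higher one without it. All 12 libraries came from this 1 line. NC cells were the negative control of the RNA interference and siPdcd5 cells carried a knockdown of Pdcd5 (programmed cell death 5). Both were measured without TGF-β1 and after 24 hours of TGF-β1 at 20 ng/ml, added after 2 hours without serum, which gave 4 groups of 3 libraries, named NC and siPdcd5 without it and NC + TGF-β1 and siPdcd5 + TGF-β1 with it. The labels do not say whether the 3 libraries of a group came from separate cultures, so p-values measure only the spread between these libraries.

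AP-1 is a dimer of leucine zipper (bZIP) proteins, in which a Jun protein pairs with another Jun protein, a Fos protein or a relative such as Atf3. Many of its genes belong to the immediate early genes, which serum, growth factors and stress switch on within minutes through MAP kinases and through serum response factor and its partners, and which mostly decline again within hours. TGF-β1 acts through Smad proteins, which can share DNA sites with AP-1, and through MAP kinases. The libraries hold 1 late time, so the values below describe levels at 24 hours and not the early wave.

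The stretches before 3 of these genes are shown because Junb and Jun rose together with TGF-β1, whereas Fos was close to the limit of detection. Each holds the 250 bases before the RefSeq start site, written on the strand of the gene, and capitals mark the letters TGACG, which are also the first part of the cyclic AMP response element (CRE) TGACGTCA. The Junb stretch lies on the minus strand at chr8:84978749-84978998, the Jun stretch on the minus strand at chr4:95052223-95052472 and the Fos stretch on the plus strand at chr12:85473640-85473889 of GRCm38.p6.
Junb: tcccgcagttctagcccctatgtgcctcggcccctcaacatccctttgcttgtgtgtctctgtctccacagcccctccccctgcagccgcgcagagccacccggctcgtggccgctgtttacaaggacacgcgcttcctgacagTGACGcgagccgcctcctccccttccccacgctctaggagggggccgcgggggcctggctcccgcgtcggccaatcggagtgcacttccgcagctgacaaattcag
Jun: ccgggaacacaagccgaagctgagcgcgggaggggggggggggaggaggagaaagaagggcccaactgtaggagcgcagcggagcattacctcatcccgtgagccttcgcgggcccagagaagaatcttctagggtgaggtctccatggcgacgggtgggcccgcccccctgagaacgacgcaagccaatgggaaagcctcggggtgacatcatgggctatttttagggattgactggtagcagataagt
Fos: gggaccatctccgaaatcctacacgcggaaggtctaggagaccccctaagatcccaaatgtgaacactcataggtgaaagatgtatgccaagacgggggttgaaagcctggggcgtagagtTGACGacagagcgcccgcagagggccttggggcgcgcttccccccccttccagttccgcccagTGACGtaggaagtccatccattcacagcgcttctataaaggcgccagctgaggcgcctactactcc

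Only exact letters were searched, and near matches, such as tgacatca in the Jun stretch, were not counted. TGACG was found once before Junb, 106 bases before the start site. It was found at 2 places before Fos, 129 and 66 bases before the start site, and was not found before Jun. Among the 8 members with a RefSeq window, 4 held these letters on either strand (Atf3, Fos, Fosb and Junb), and so did 20.8% of all 32851 windows of 300 bases. This short form was chosen after the windows had been seen. The AP-1 site TGANTCA was in 0 of the 8 windows and in 7.81% of all windows, TGACGTCA in 0 of 8 and in 1.79%, the CArG box of serum response factor in 0 of 8 and in 1.63%, and the Smad palindrome GTCTAGAC in 0 of 8 and in 0.213%. The Egr site GCGNGGGCG was in the windows of Fosb and Fosl2 and in 5.55% of all windows. Both strands were searched, and these are letter matches within a short window and not evidence of binding.

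The libraries held 12809857 to 17714828 counts, and 3 counts, the limit that a count of 0 allows, correspond to 0.165 to 0.239 CPM. This limit covers counting error only. CPM stands for counts scaled to a common library size, here the total count times the TMM factor of edgeR. The knockdown was seen in every library: Pdcd5 lay between 65.1 and 73.5 CPM in all 6 libraries of NC cells, against 19.9 to 26.3 CPM in all 6 of siPdcd5 cells (log2 fold change -1.69 without and -1.49 with TGF-β1). The defining club cell markers were absent or nearly so, with 0 counts of Scgb3a2 and Cyp2f2 in all 12 libraries and of Scgb1a1 in 11 of 12. The 8 epithelial markers were mixed. Epcam was at 0 in 11 of 12 libraries and Cldn4 and Cldn7 each in 10, and Krt19 stayed at or under 0.304 CPM. Krt8 (171 to 523 CPM), Krt18 (373 to 1198 CPM), Cdh1 and Krt7 were detected in all 12. Of 7 club cell markers, 3 had no count in any library, and their summed level of 82.5 to 188 CPM came almost wholly from Cbr2 at 82.5 to 187 CPM. All 9 mesenchymal markers were detected. Their sum was 6222 to 6615 CPM in NC against 10126 to 10936 CPM in NC + TGF-β1. In the knockdown cells it was 5126 to 5391 CPM in siPdcd5 against 7622 to 8177 CPM in siPdcd5 + TGF-β1. With TGF-β1, 6 of the 9 were called higher and 1 lower in NC, and 5 higher and 2 lower in siPdcd5. Over all genes 8.57% were called higher and 6.77% lower in NC, and 8.5% and 7.61% in siPdcd5. The rise of the mesenchymal sum was carried by the collagen genes Col1a1 (2718 ± 76.4 CPM in NC and 6115 ± 368 in NC + TGF-β1) and Col3a1 and by Acta2, the smooth muscle actin gene. Vim, the vimentin gene, was a large part of the sum (2080 ± 164 CPM in NC) but fell in both cell types (log2 fold changes -0.61 and -0.77). Twist1 fell in siPdcd5 (-0.72). The part of these markers in the changes of the AP-1 genes was not tested. In these bulk samples fewer cells of a type and less RNA per cell cannot be told apart.

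TGF-β1 left NC cells with more Junb, Jun, Atf3 and Fosl2 at 24 hours. Of the 10 genes these 4 rose and 0 fell (edgeR quasi-likelihood F test, adjusted by Benjamini-Hochberg over all genes tested), against a background of 8.57% of all genes called higher and 6.77% called lower. The median log2 fold change of the 10 genes was 0.39, beside 0.005 over all genes tested. The same 4 genes rose and 0 fell in siPdcd5 cells, where 8.5% of all genes were called higher and 7.61% lower. The median of the 10 was 0.34 there, beside -0.03 over all genes. The group was chosen with earlier results of these data known, so these shares and medians describe it and do not test it. Where libraries are said below to lie wholly above or below others, the share of all genes that do so is not given here. Each response was measured against its own untreated libraries, so the 2 responses share no library, although the fit uses 1 estimate of the spread for each gene over all 12.

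**Figure D1:**
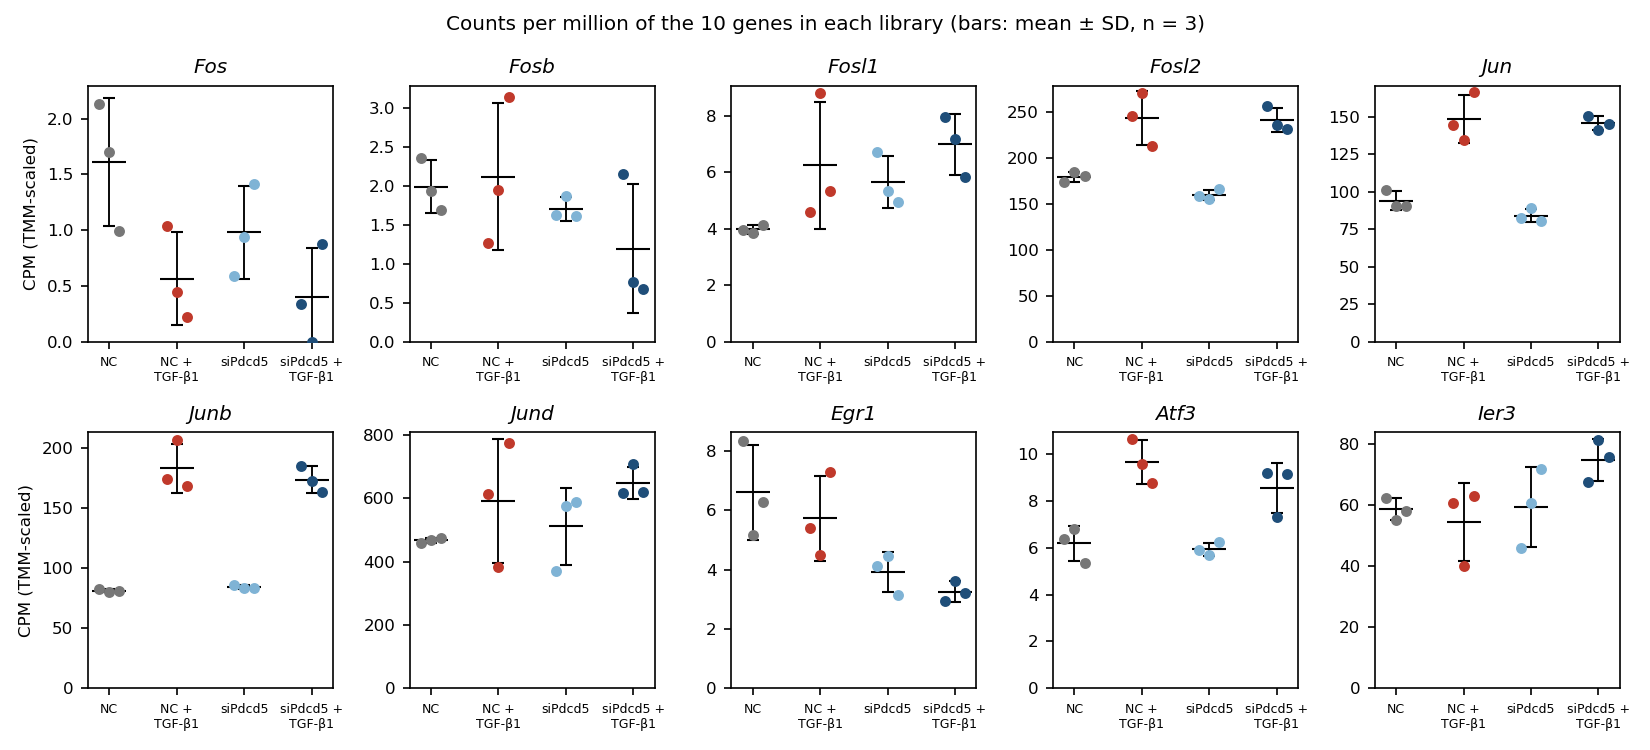
CPM (vertical axis, counts scaled by TMM library size) of the 10 genes in each of the 12 libraries, by group (horizontal axis). Points are libraries, and bars give the mean and SD of 3. Fosl2, Jun, Junb and Atf3 are higher in every library with TGF-β1 than in any without, and Egr1 is lower in every siPdcd5 library than in any NC library. The share of all genes that separate in these ways is not given here. Fos and Fosb stay at or under 3.14 CPM.

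Junb, the Jun protein that often restrains Jun at AP-1 sites and promotes differentiation, showed the largest rise of the 10 genes. It was 82.7, 80.1 and 81.2 CPM in NC and 174, 206 and 168 CPM in NC + TGF-β1. In siPdcd5 it was 86.0, 83.6 and 83.1 CPM, and in siPdcd5 + TGF-β1 185, 172 and 163 CPM. The untreated libraries of both cell types lay within 6 CPM of each other, and all 6 treated libraries stood above all 6 untreated ones. Junb rose 2.25-fold in NC (log2 fold change 1.17, SE 0.09, adjusted p = 6.4e-07) and 2.06-fold in siPdcd5 (1.04, SE 0.09, adjusted p = 2.1e-06). The Junb gene (chr8:84974484-84978718, minus strand) shares 351 bases with Prdx2, which runs towards it from the other strand, and both 3′ ends lie in the shared part. The 3′ reads of the 2 genes could be told apart only by strand, and use of strand in the counting is not given in the sources used here. Prdx2, a peroxidase, was 166 to 224 CPM over the 12 libraries, with log2 fold changes of 0.02 in NC and 0.10 in siPdcd5 that did not pass the test.

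Jun, the partner of most Fos proteins and a target of the JNK kinases, rose less. Its libraries read 101, 90.7 and 90.2 CPM in NC and 145, 134 and 166 CPM in NC + TGF-β1. The knockdown cells read 82.7, 89.0 and 80.2 CPM without and 151, 141 and 145 CPM with TGF-β1. No treated library overlapped an untreated one. The log2 fold change was 0.66 in NC (SE 0.09, adjusted p = 1.9e-04) and 0.79 in siPdcd5 (SE 0.09, adjusted p = 3.8e-05), which is 1.58-fold and 1.73-fold. Jun lies on the minus strand at chr4:95049034-95052222, and the antisense transcript Junos overlaps 689 bases of it away from its 3′ end.

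Jund, the Jun protein that is present in most resting cells, had the highest counts of the 10 genes and the widest spread among the 3 Jun genes. It was 460, 469 and 475 CPM in NC but 615, 384 and 775 CPM in NC + TGF-β1, so that 1 treated library lay below and 2 above all NC libraries. In siPdcd5 it was 372, 576 and 589 CPM, and in siPdcd5 + TGF-β1 618, 708 and 621 CPM, all above siPdcd5. The log2 fold change was 0.34 in both (SE 0.21, adjusted p = 0.325 in NC and 0.302 in siPdcd5), which did not pass the test. The value in NC depended on single libraries, at 0.57 (adjusted p = 0.012) without NC + TGF-β1 replicate 2 and 0.10 (adjusted p = 0.798) without NC + TGF-β1 replicate 3.

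The summed Jun family was 643 ± 3.56 CPM (SD, n = 3) in NC against 922 ± 192 in NC + TGF-β1, and 681 ± 121 in siPdcd5 against 968 ± 48.0 in siPdcd5 + TGF-β1. Junb made up 12.6 ± 0.18% of the family's counts in NC and 20.8 ± 6.90% in NC + TGF-β1, and 12.7 ± 2.77% and 17.9 ± 1.31% in the knockdown cells. Jund made up 72.7 ± 1.16%, 62.9 ± 8.82%, 74.7 ± 5.14% and 67.0 ± 2.25% in the same order. These are shares of counts in an assay that reads transcripts near their 3′ end, they were not scaled by length, and capture may differ between genes. In both cell types the Junb share was higher in all treated libraries than in all untreated ones, while the Jund share in NC + TGF-β1 ran from 53.0 to 69.9%.

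Among the Fos proteins, which have no dimers of their own and need a Jun partner, the counts were almost wholly those of Fosl2. Fosl2 (Fra-2) took 94.7 to 97.3% of the family's counts in the 12 libraries, and Fos, Fosb and Fosl1 each stayed at or under 8.82 CPM in every library. Fosl2 was 174, 185 and 180 CPM in NC and 245, 271 and 213 CPM in NC + TGF-β1. It was 159, 155 and 166 CPM in siPdcd5 and 256, 236 and 232 CPM in siPdcd5 + TGF-β1. Again all treated libraries stood above all untreated ones. The rise was 1.35-fold in NC (log2 fold change 0.44, SE 0.09, adjusted p = 0.0046) and 1.51-fold in siPdcd5 (0.59, SE 0.09, adjusted p = 4.4e-04).

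Fos, the classic immediate early gene, was near the limit of detection in treated cells. It had 28, 23 and 13 counts in NC against 13, 6 and 3 in NC + TGF-β1, and 8, 17 and 22 in siPdcd5 against 5, 0 and 13 in siPdcd5 + TGF-β1. In CPM the group means were 1.61 ± 0.57, 0.57 ± 0.42, 0.98 ± 0.41 and 0.40 ± 0.44 (SD, n = 3). The lowest untreated and highest treated libraries overlapped in both cell types. The log2 fold change was -1.51 in NC (95% interval -2.95 to -0.08, adjusted p = 0.159) and -1.23 in siPdcd5 (-2.76 to 0.30, adjusted p = 0.279), and neither passed the test. At these counts a change of Fos was not detectable after adjustment, and the intervals reach from near 0 or above it to a fall of more than 4-fold.

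Fosb, the Fos family member with a long-lived splice form in neurons, was as scarce, at 0.67 to 3.14 CPM over the 12 libraries. Its log2 fold change with TGF-β1 was 0.10 in NC (95% interval -0.79 to 0.98) and -0.50 in siPdcd5 (-1.43 to 0.44), and the groups overlapped.

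Fosl1 (Fra-1), which is often raised in migrating and invasive cells, was 3.95, 3.85 and 4.14 CPM in NC and 4.62, 8.82 and 5.33 CPM in NC + TGF-β1. In siPdcd5 it was 6.71, 5.34 and 4.95 CPM and in siPdcd5 + TGF-β1 7.98, 7.17 and 5.84 CPM. The NC libraries were the lowest 3 of the 12. The log2 fold change with TGF-β1 was 0.65 in NC (SE 0.24, adjusted p = 0.0929) and 0.31 in siPdcd5 (SE 0.23, adjusted p = 0.417), and neither passed the test. The value in NC depended on single libraries, at 0.83 (adjusted p = 0.0438) without NC + TGF-β1 replicate 1 and 0.32 (adjusted p = 0.348) without NC + TGF-β1 replicate 2. Fosl1 (chr19:5447547-5455946, plus strand) and Ccdc85b on the other strand run into each other and share 2767 bases that hold both 3′ ends. Ccdc85b was 14.2 ± 1.42 CPM in NC against 18.7 ± 3.40 in NC + TGF-β1, and 17.8 ± 2.76 in siPdcd5 against 19.0 ± 1.43 in siPdcd5 + TGF-β1, also lowest in NC. Its log2 fold change with TGF-β1 in NC was 0.40 (adjusted p = 0.102), and without strand the reads of Fosl1 and Ccdc85b cannot be told apart.

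Atf3, a stress-induced partner of Jun that can repress its targets, was 6.38, 6.82 and 5.37 CPM in NC and 10.7, 9.56 and 8.77 CPM in NC + TGF-β1. It was 5.90, 5.68 and 6.24 CPM in siPdcd5 and 9.19, 7.32 and 9.14 CPM in siPdcd5 + TGF-β1. Every treated library was above every untreated one. Atf3 rose 1.56-fold in NC (log2 fold change 0.64, SE 0.16, adjusted p = 0.0135) and 1.44-fold in siPdcd5 (0.53, SE 0.16, adjusted p = 0.0375). These were the only calls of the 4 genes that were lost in some of the alternative fits. In NC the call was lost in 3 of 19, without NC replicate 3 (adjusted p = 0.0753), without NC + TGF-β1 replicate 1 (0.0603) and with only the 6 libraries compared (0.0516). In siPdcd5 it was lost in 9 of 19, with log2 fold changes of 0.47 to 0.57. With no filter on low counts the adjusted p was 0.0656, with the replicate block 0.0601 and with only the 6 libraries compared 0.0529. The others were the fits without NC replicate 1 (0.0507), without siPdcd5 replicate 1 (0.0796), 2 (0.104) or 3 (0.0675), and without siPdcd5 + TGF-β1 replicate 1 (0.133) or 3 (0.124).

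Egr1, a zinc finger factor of the immediate early class, was 8.36, 5.19 and 6.29 CPM in NC and 5.41, 4.48 and 7.31 CPM in NC + TGF-β1. The knockdown cells read 4.13, 4.46 and 3.15 CPM without and 2.95, 3.62 and 3.22 CPM with TGF-β1. TGF-β1 gave log2 fold changes of -0.20 in NC (95% interval -0.70 to 0.30) and -0.27 in siPdcd5 (-0.80 to 0.27), with overlapping groups and adjusted p-values of 0.642 and 0.524. Ier3, an early response gene that modulates survival and NF-κB signalling, was 62.4, 55.2 and 58.1 CPM in NC and 60.8, 39.9 and 62.8 CPM in NC + TGF-β1. It was 45.8, 60.8 and 71.7 CPM in siPdcd5 and 67.7, 81.3 and 75.6 CPM in siPdcd5 + TGF-β1. Its log2 fold change was -0.10 in NC (-0.47 to 0.27) and 0.33 in siPdcd5 (-0.04 to 0.70), with adjusted p-values of 0.767 and 0.222. Neither gene passed the test in either response.

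**Figure D2:**
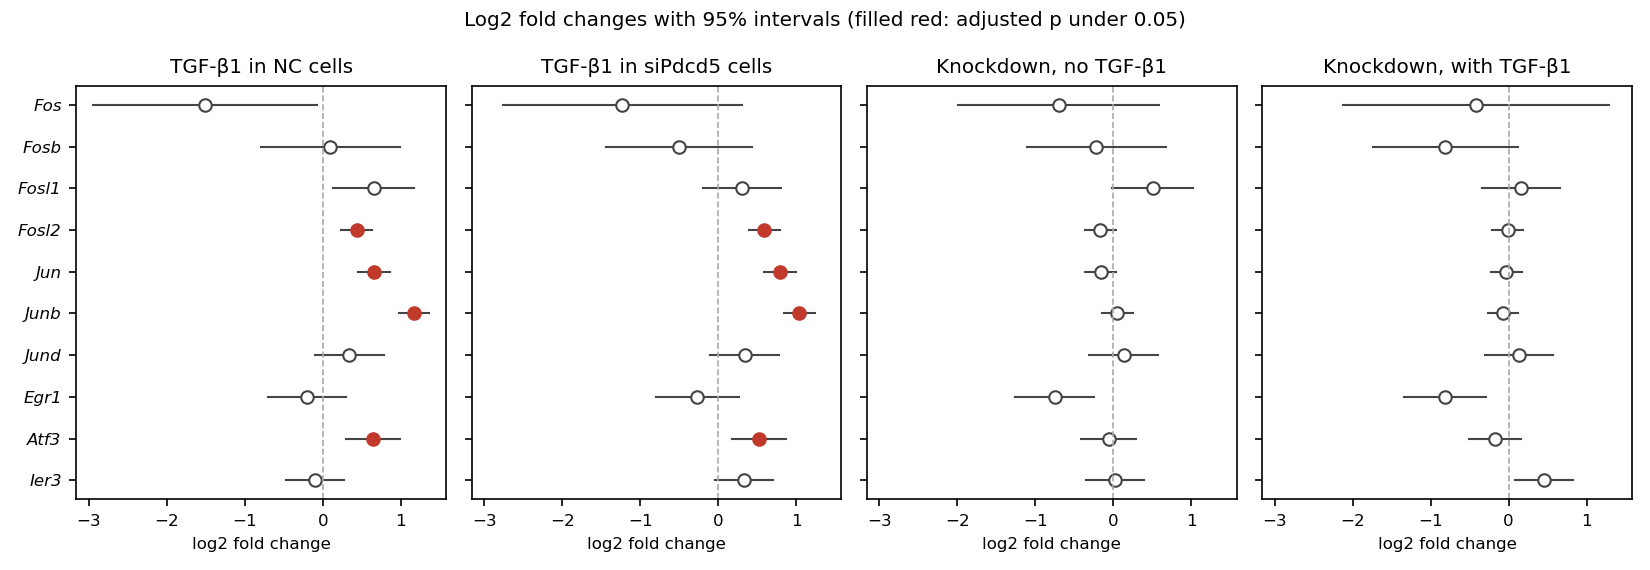
Log2 fold changes (horizontal axis) of the 10 genes (vertical axis) in the 4 pairwise comparisons, with 95% intervals as lines. Filled red points passed the test at an adjusted p under 0.05: Fosl2, Jun, Junb and Atf3 with TGF-β1 in both cell types, and none with the knockdown.

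None of the 10 genes passed the test for knockdown of Pdcd5 at either level of TGF-β1. Without TGF-β1, 0 of the 10 were called by edgeR, beside 0.901% of all genes called higher and 2.54% called lower, and 1 of the 10, Egr1, had an unadjusted p under 0.05. With TGF-β1, 0 of the 10 were called, beside 0.33% called higher and 1.22% lower, and 2 of the 10, Egr1 and Ier3, had an unadjusted p under 0.05. DESeq2 and limma on quantile-normalised values also called 0 of the 10 in both comparisons. The median log2 fold change of the 10 was -0.11 without TGF-β1 (0.02 over all genes) and -0.05 with it (-0.02 over all genes). These comparisons share libraries with those of TGF-β1 above.

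For Junb and Jun the difference between siPdcd5 and NC was smaller than their response to TGF-β1. For Fosl2 and Atf3 it was less well bounded. Junb differed by 0.05 on the log2 scale without TGF-β1 (95% interval -0.15 to 0.25) and by -0.08 with it (-0.27 to 0.12). Jun differed by -0.16 (-0.37 to 0.04) and -0.03 (-0.23 to 0.17), and Fosl2 by -0.17 (-0.37 to 0.03) and -0.01 (-0.21 to 0.19). The first interval of Fosl2 overlaps in size that of its response in NC (0.44, 95% interval 0.24 to 0.64). Without TGF-β1 all siPdcd5 libraries of Jun and of Fosl2 lay below all NC libraries. Those of Junb lay above them, and none of these margins passed the test. The share of all genes that separate like this is not given here. Atf3 differed by -0.06 (-0.41 to 0.29) and -0.17 (-0.51 to 0.16), intervals that reach a size near that of its own response. A p-value above the threshold does not show that the levels were equal, and the intervals bound a difference of Junb, Jun or Fosl2 at less than 0.4 on the log2 scale in either direction.

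Egr1 was the only 1 of the 10 genes whose knockdown libraries all lay apart from the NC libraries, whatever the treatment. How many of all genes tested lie apart in this way is not given here. All 6 siPdcd5 libraries (2.95 to 4.46 CPM, median 3.42) lay below all 6 NC libraries (4.48 to 8.36 CPM, median 5.85), although the nearest 2 were almost equal. The log2 fold change was -0.75 without TGF-β1 (SE 0.24, unadjusted p = 0.0067, adjusted p = 0.113) and -0.81 with it (SE 0.25, unadjusted p = 0.0050, adjusted p = 0.132), and neither comparison passed the test on its own. Averaged over both treatments, a contrast that was added after these values had been seen, the log2 fold change was -0.78 (SE 0.17, 95% interval -1.15 to -0.42, adjusted p = 0.0118). In that contrast 1 of the 10 genes was called lower and 0 higher, beside 5.13% of all genes called lower and 2.58% higher. Egr1 passed in all 18 alternative fits of the contrast, with adjusted p-values of 6.6e-04 to 0.0375. Its libraries held 44 to 110 counts each.

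Ier3 was higher in siPdcd5 + TGF-β1 than in NC + TGF-β1, with no overlap of the libraries (log2 fold change 0.46, SE 0.17, unadjusted p = 0.0188, adjusted p = 0.235), and did not pass the test. How many of all genes separate in this way is not given here. The difference of Ier3 was 0.28 (adjusted p = 0.352) without NC + TGF-β1 replicate 2, its lowest library. Without TGF-β1 it differed by 0.02 (95% interval -0.35 to 0.39). Fosl1 differed by 0.50 without TGF-β1 (-0.02 to 1.02, adjusted p = 0.340) and by 0.16 with it (-0.34 to 0.66). Averaged over both treatments Fosl1 differed by 0.33 (adjusted p = 0.281), and by 0.50 with an adjusted p of 0.0392 without NC + TGF-β1 replicate 2. Jund differed by 0.13 in both states (-0.31 to 0.57 without and -0.31 to 0.58 with TGF-β1). Fos differed by -0.70 (-1.99 to 0.59) and -0.42 (-2.12 to 1.28), and Fosb by -0.22 (-1.11 to 0.67) and -0.81 (-1.74 to 0.11), with overlapping libraries in each case.

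The question of whether Pdcd5 changes the response of these genes to TGF-β1 was tested by the interaction, the response in siPdcd5 minus that in NC. None of the 10 genes passed, and 0% of all genes passed (0 of 12425), with 0 of the 10 and 638 of all genes at an unadjusted p under 0.05 in edgeR. DESeq2 called 15 genes in all and 0 of the 10. The responses differed by -0.13 on the log2 scale for Junb (95% interval -0.40 to 0.15), 0.14 for Jun (-0.15 to 0.42), 0.16 for Fosl2 (-0.13 to 0.44) and -0.11 for Atf3 (-0.60 to 0.38). The value for Ier3 was 0.43 (-0.09 to 0.96, unadjusted p = 0.0957, adjusted p = 0.951), and 0.25 without NC + TGF-β1 replicate 2. The intervals of Fos (-1.91 to 2.47) and Fosb (-1.88 to 0.69) were too wide to bound a difference.

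The other bZIP genes give the setting of the AP-1 dimers. Of 17 on the list, 14 were tested. With TGF-β1 3 rose and 0 fell in NC and again 3 and 0 in siPdcd5, namely Atf4, Atf5 and Mafk in both. Over all genes 8.57% were called higher and 6.77% lower in NC, and 8.5% and 7.61% in siPdcd5. Atf4, the master factor of the amino acid and stress response, went from 751 ± 15.4 to 1345 ± 391 CPM (SD, n = 3) in NC and from 558 ± 131 to 1089 ± 58.8 CPM in siPdcd5, with log2 fold changes of 0.84 (adjusted p = 0.0070) and 0.96 (adjusted p = 0.0027). Atf5, which Atf4 induces, rose by 0.79 and 1.06, and the small Maf protein Mafk by 0.72 and 0.86. Atf4 kept its call in all 19 alternative fits in both cell types, and Atf5 and Mafk did so in siPdcd5, but in NC Atf5 was called in 11 of 19 (adjusted p up to 0.134) and Mafk in 15 of 19 (up to 0.0608). The Jun partners Atf2 and Jdp2 and the CRE binding factor Creb1, which were picked after their values had been seen, had log2 fold changes between -0.14 and 0.14 in both cell types and did not pass. The median over the 14 genes was 0.08 in NC and 0.04 in siPdcd5.

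Other early response genes went in both directions. Of 42 on the list, 37 were tested. In NC 14 rose and 5 fell, beside 8.57% of all genes called higher and 6.77% lower. In siPdcd5 12 rose and 7 fell, beside 8.5% and 7.61%. The medians of the list were 0.10 and 0.18. The largest rises were those of Gadd45a, a growth arrest and DNA damage gene (log2 fold change 2.32 in NC and 1.90 in siPdcd5), Ctgf, a matricellular growth factor (2.27 and 2.62), and Ptgs2, the inducible cyclooxygenase (1.86 and 1.62). Gadd45a went from 6.92 ± 1.53 to 34.5 ± 6.69 CPM in NC, and Ctgf from 52.1 ± 14.1 to 251 ± 141 CPM. The largest falls in NC were those of Dusp1, a phosphatase of MAP kinases (-0.93, and -1.07 in siPdcd5), Socs3, an inhibitor of cytokine signalling (-0.93 and -1.29), and Cebpd, a bZIP factor of the acute phase (-0.89 and -0.83). Dusp1 went from 46.3 ± 5.27 to 24.3 ± 6.0 CPM in NC and from 40.6 ± 5.39 to 19.2 ± 4.33 CPM in siPdcd5. In siPdcd5 Zfp36l2, an mRNA decay factor, fell by 0.85 on the log2 scale (adjusted p = 0.0290), a call that was kept in 14 of 19 alternative fits. Its libraries read 73.8, 42.5 and 44.1 CPM in siPdcd5 and 28.8, 27.3 and 32.6 CPM in siPdcd5 + TGF-β1, and without siPdcd5 replicate 1 the log2 fold change was -0.54 (adjusted p = 0.135). In NC it was 35.9, 40.8 and 41.5 CPM without and 24.8, 49.2 and 25.7 CPM with TGF-β1 (log2 fold change -0.25, adjusted p = 0.589). The responses of Zfp36l2 in the 2 cell types were not shown to differ (interaction -0.60, 95% interval -1.35 to 0.14, adjusted p = 0.951). The well-known early genes Egr3, Nr4a1, Klf2, Klf4 and Myc, picked after their values had been seen, did not pass in either cell type, with log2 fold changes of -0.35 to 0.77. Egr3 had only 2 to 12 counts in a library and Nr4a1 5 to 19, so the test says little about these 2 genes.

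**Figure D3:**
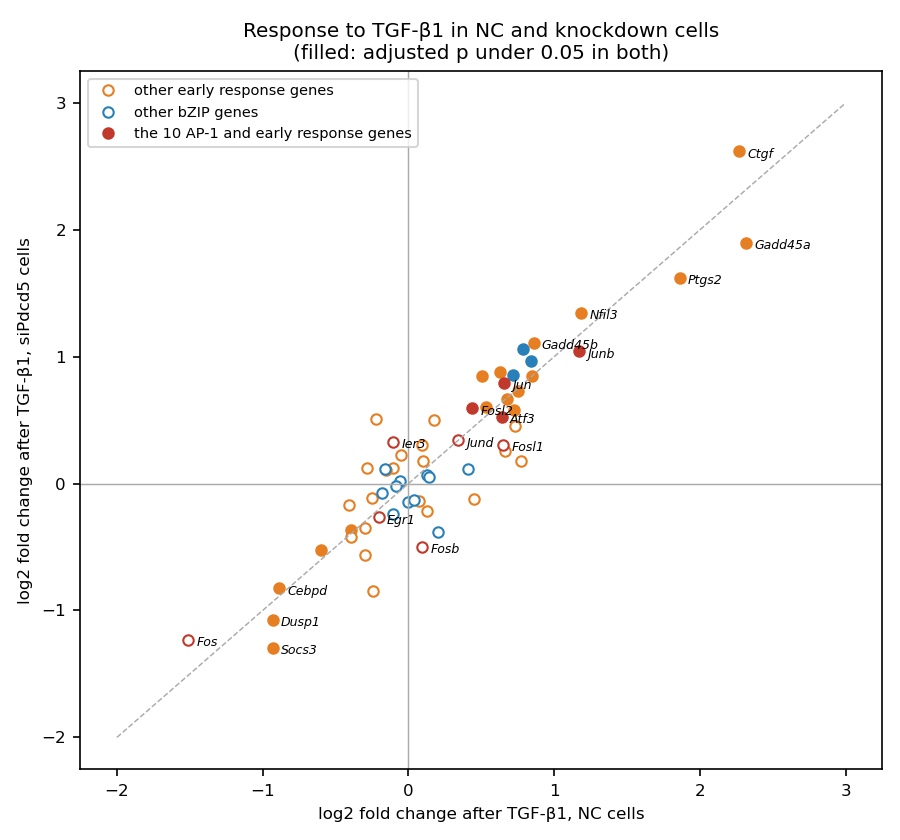
Log2 fold change with TGF-β1 in NC cells (horizontal axis) and in siPdcd5 cells (vertical axis) for the 10 genes, the other bZIP genes and the other early response genes that were tested. Filled points passed at an adjusted p under 0.05 in both cell types and the dashed line marks equal values. Junb lies at 1.17 and 1.04, and Ctgf, Gadd45a and Ptgs2 lie farthest to the upper right.

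Of 24 kinases and nuclear factors upstream of AP-1, 23 were tested, and 2 rose and 3 fell in each cell type. Over all genes 8.57% were called higher and 6.77% lower in NC, and 8.5% and 7.61% in siPdcd5. These counts describe the list and do not test it. In NC the ternary complex factor Elk3 rose by 0.59 and the JNK gene Mapk9 by 0.48 on the log2 scale, while the p38 activators Map2k6 and Map2k3 fell by 1.43 and 0.41 and the ERK1 gene Mapk3 fell by 0.49. In siPdcd5 Elk3 rose by 0.65 and Map2k1, the MEK1 gene, by 0.60, and Mapk3 fell by 0.53, Map2k3 by 0.53 and the Srf coactivator Mkl2 by 0.32. The list's median was -0.01 in NC and -0.10 in siPdcd5. Elk3, Map2k6 and Mapk3 kept these calls in all 19 alternative fits, but Mapk9 did so in 11, Map2k3 in 8 in NC and 17 in siPdcd5, Map2k1 in 10 and Mkl2 in 8. These are transcript levels, and kinase activity was not measured.

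Genes that are often given as AP-1 targets also went in both directions. Of 20, 13 were tested. In NC 4 rose and 3 fell, beside 8.57% of all genes called higher and 6.77% lower. In siPdcd5 5 rose and 3 fell, beside 8.5% and 7.61%. The medians of the list were 0.19 and 0.53. Timp1, an inhibitor of matrix metalloproteinases, rose from 99.7 ± 8.20 to 333 ± 41.6 CPM in NC and from 119 ± 12.3 to 312 ± 16 CPM in siPdcd5 (log2 fold changes 1.74 and 1.39). The hyaluronan receptor Cd44 rose by 1.13 and 0.85 and the angiogenic factor Vegfa by 1.11 and 0.83. The metalloproteinase genes Mmp3 and Mmp13 fell, by 2.53 and 1.44 on the log2 scale in NC and by 2.12 and 1.25 in siPdcd5. Mmp3 went from 7.03 ± 0.44 to 1.21 ± 0.21 CPM in NC. Ccnd1, the cyclin D1 gene, fell from 1252 ± 42.6 to 521 ± 68.2 CPM in NC and from 1021 ± 101 to 447 ± 6.69 CPM in siPdcd5. These 6 genes were called in the same direction in both cell types.

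With the knockdown, 1 gene of these 4 lists was called in the pairwise comparisons. Over all genes 0.901% were called higher and 2.54% lower without TGF-β1, and 0.33% and 1.22% with it. Mmp10, stromelysin-2, was 3.60 ± 0.65 CPM in NC + TGF-β1 and 7.07 ± 1.14 CPM in siPdcd5 + TGF-β1 (log2 fold change 0.97, SE 0.21, adjusted p = 0.0307). It was 3.53 ± 0.44 CPM in NC and 4.76 ± 0.48 CPM in siPdcd5 (0.43, adjusted p = 0.348). This call of Mmp10 was lost in 6 of 19 alternative fits, with log2 fold changes of 0.83 to 1.05. These were the fits without NC + TGF-β1 replicate 1 (adjusted p = 0.0632) or 3 (0.104), without siPdcd5 + TGF-β1 replicate 2 (0.146) or 3 (0.132), with the replicate block (0.0633) and with only the 6 libraries compared (0.143). The contrast averaged over both treatments, which was added after values had been seen, called 2.58% of all genes higher and 5.13% lower. It called 1 of 14 other bZIP genes, 2 of 37 other early response genes, 2 of 23 upstream genes and 2 of 13 targets. In it Mmp10 was again higher (0.70), as were the kinase gene Rps6ka1 (0.58) and the ternary complex factor Elk1 (0.33). Ctgf (-1.13), Atf5 (-0.60), the growth factor gene Hbegf (-0.41) and Ccnd1 (-0.26) were lower. Among the genes called in this contrast, Ctgf was called in 17 of 18 alternative fits and Elk1 in 8. Atf5 and Hbegf were called in 7 each and Ccnd1 in 6, while Mmp10 and Rps6ka1 were called in all 18.

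The genes whose levels followed the responders most closely were found among 9128 genes by Pearson's r of log2 CPM over the 12 libraries. Most of the agreement comes from the step between untreated and treated libraries, and it is given as a description without a test. Fosl2 was most like Ier5 (r = 0.990, Spearman's rho 0.986), Plk2 (0.982, rho 0.979) and Ctps (0.976, rho 0.916). After the group means were removed r was 0.893, 0.856 and 0.744. Genes with an unlike pattern reached higher values within groups, such as Gm7334 (0.950, but 0.313 over the 12 libraries). Ier5 and Plk2 are themselves early response genes, at 123 ± 4.35 and 48.6 ± 3.59 CPM in NC against 189 ± 26.9 and 68.8 ± 6.31 in NC + TGF-β1, and at 103 ± 7.61 and 40.8 ± 2.14 in siPdcd5 against 190 ± 18.4 and 73.6 ± 9.35 in siPdcd5 + TGF-β1. Jun was most like Fxyd5 (0.995, rho 0.979), Bmpr2 (0.989, rho 0.930) and Daam1 (0.987, rho 0.930). Junb was most like Ncam1 (0.990, rho 0.909), Pla2g16 (0.990, rho 0.895) and Plod2 (0.989, rho 0.818). For Junb and Ncam1 r within groups was 0.450. Atf3 was most like Arhgef2 (0.952, rho 0.909), Sh3pxd2a (0.950, rho 0.923) and Tmed5 (0.940, rho 0.923).

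NC + TGF-β1 replicate 2 stood apart from the other libraries of its group in several of the 10 genes. On the log2 scale it lay 0.56 below its group mean in Jund and 0.42 below in Ier3, and 0.54 above in Fosl1 and 0.18 above in Junb. siPdcd5 replicate 1 had the same signs in these 4 genes, with Jund 0.43 and Ier3 0.35 below its group mean. The 1194 most GC-rich genes (at least 57.9% GC) had a median deviation of -0.14 in the first library and -0.08 in the second, and of 0.09 in NC + TGF-β1 replicate 3, where Jund was 0.45 above its mean. Jund and Junb are both among the most GC-rich genes, at the 99.9 and 98.8 percentile of the tested genes with a GC value, yet they deviated in opposite directions. The part of GC content in these deviations was not tested. Without NC + TGF-β1 replicate 2, Junb, Jun, Fosl2 and Atf3 remained called in NC and Jund was added, as given above.

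**Figure D4:**
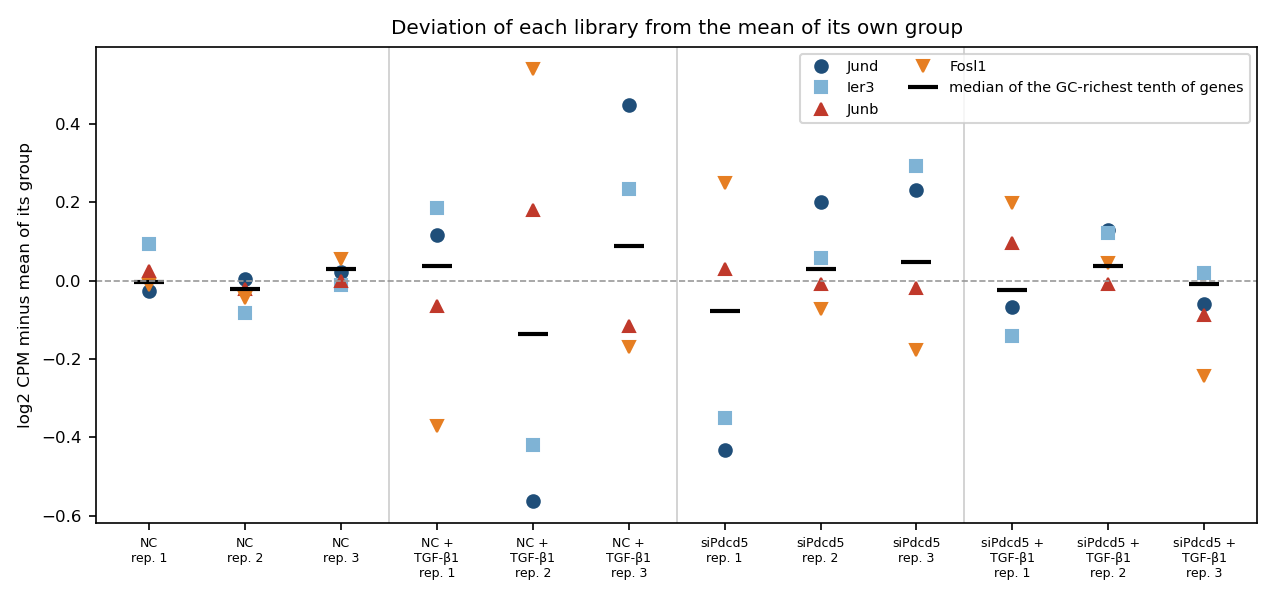
Log2 CPM of Jund, Ier3, Junb and Fosl1 in each library minus the mean of the group of that library (vertical axis), for the 12 libraries (horizontal axis). Black bars give the median over the 1194 most GC-rich genes. NC + TGF-β1 replicate 2 shows the widest spread, from -0.56 for Jund to 0.54 for Fosl1.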

How the data were processed

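RNA from 12 C22 libraries, 3 in each of 4 groups, was measured by QuantSeq 3′ mRNA sequencing. The authors deposited whole-number counts for each gene symbol, which they had made with Bedtools from single-end reads aligned with Bowtie2 to mm10, reads with several alignments included. Quantile normalization in edgeR, which their methods name, is not in these counts. Groups were taken from the labels.

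From the counts, R 4.3.3 with edgeR 4.0.16 kept 12425 of 23282 genes by its default filter, scaled libraries by TMM and fitted 1 quasi-likelihood model of 4 groups (square root of the common dispersion 0.132). P-values were adjusted by Benjamini-Hochberg over all 12425 genes, and an adjusted p under 0.05 counted as called. CPM uses full library totals of 12809857 to 17714828 counts, and log2 CPM a prior count of 2. Standard errors were derived from the fold change and its F statistic. The fit was tested on simulated counts. The alternative fits used upper-quartile factors, limma 3.58.1 on quantile-normalised log2 CPM, DESeq2 1.42.0, other filters, a replicate block, only the 6 libraries compared, and each library left out. Positions come from GENCODE on GRCm38 and start sites from RefSeq.

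The members and gene lists were chosen with earlier results of these data known. All members were described in every comparison, and from each other list the 3 called genes with the largest rise and the 3 with the largest fall.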

Additional observations from a re-analysis of the deposited data

How the results depend on the processing

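Junb, Jun and Fosl2 were called higher with TGF-β1 in both cell types in all 19 alternative fits, with log2 fold changes of 0.99 to 1.23, 0.58 to 0.84 and 0.35 to 0.62. Atf3 was called in 16 of 19 fits in NC and in 10 of 19 in siPdcd5. No gene of the 10 was called for the knockdown in any of the 19 fits of either comparison, or in the interaction in any of 18. Fos could not be fitted with at least 10 counts in every library. Over all genes, the knockdown without TGF-β1 gave 427 genes, 714 with DESeq2 and 167 to 667 with 1 library left out. The knockdown with TGF-β1 gave 192 genes (41 higher and 151 lower), 458 with DESeq2, 107 with the replicate block, 44 with only the 6 libraries compared, 161 (51 higher and 110 lower) with quantile normalization and 73 to 322 with 1 library left out. The interaction gave 0 genes, 15 with DESeq2 and 0 to 2 with 1 library left out. The contrast averaged over both treatments gave 957 genes, 608 to 1319 with 1 library left out, and 1 of the 10 genes, 1 to 2 with 1 library left out. Among the fits with 1 library left out, the highest of these counts came without NC + TGF-β1 replicate 2. The cause of these shifts was not tested.

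Signs turned only for values near 0 or with few counts. The difference of Fosl2 with TGF-β1 between siPdcd5 and NC was -0.01 on the log2 scale, 0.0015 with upper-quartile factors and 0.019 with quantile normalization, the interaction of Egr1 was -0.06 and 0.022 with quantile normalization, and the averaged difference of Junb was -0.012 and 0.0076 with quantile normalization. With 1 library left out, the response to TGF-β1 in NC ran from -0.29 to 0.35 for Fosb and from -0.212 to 0.0776 for Ier3. The knockdown without TGF-β1 ran from -0.16 to 0.0138 for Atf3 and from -0.13 to 0.17 for Ier3. The knockdown with TGF-β1 ran from -1.61 to 0.31 for Fos, from -0.014 to 0.49 for Fosl1, from -0.101 to 0.0765 for Fosl2, from -0.0927 to 0.0579 for Jun, from -0.137 to 0.0209 for Junb and from -0.10 to 0.37 for Jund. The interaction ran from -0.91 to 1.01 for Fos, from -0.23 to 0.24 for Jund and from -0.27 to 0.15 for Egr1, and the averaged difference of Junb from -0.0419 to 0.0358.

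The replicate numbers did not pair the libraries throughout. The 4 pairwise comparisons are TGF-β1 in NC and in siPdcd5, then the knockdown without and with TGF-β1. The correlation of same-numbered deviations averaged 0.11, 0.002, 0.02 and -0.14 in this order. In the same order 5, 2, 1 and 0 of 6 libraries correlated best with their own number, so a weak pairing remains possible for TGF-β1 in NC. With the replicate block Atf3 in siPdcd5 had a log2 fold change of 0.52 and an adjusted p of 0.0601, no other of the 10 genes changed its call, and Mmp10 was no longer called higher in siPdcd5 + TGF-β1 (0.98, adjusted p = 0.0633).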

Other observations

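Krt8 and Krt18, keratins of simple epithelium, were called higher with TGF-β1 in both cell types by edgeR although Epcam was at 0 counts in 11 of 12 libraries. Krt8 was 171 to 219 CPM in the 6 untreated libraries and 430 to 523 CPM in the 6 treated ones, and Krt18 was 373 to 511 CPM and 806 to 1198 CPM. Of 7 ciliated, goblet and basal cell markers 1 passed the filter, Krt14, a basal cell keratin, and the other 6 were at or under 0.478 CPM in every library. The sum of the 7 was lower in the knockdown cells than in the NC cells at either level of TGF-β1, at 1.99 to 4.83 against 10.4 to 12 CPM without it and at 75.8 to 88.3 against 169 to 210 CPM with it, and Krt14 was called lower in both (log2 fold changes -1.60 and -1.18).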
